A study of Mus musculus with 6 samples.

Results

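Activated regulatory T cells were the CD4 T cells that carry the subset name Act. Treg in the study's deposited CD4 cell table. They were matched by barcode to the deposited count matrix, and they made up 155 of the 7300 distinct lymph node cells. They came from 7 pregnant mice and 2 lymph nodes per mouse, with 74 cells from the uterine-draining nodes (udLN) and 81 from the brachial nodes (brLN), which drain the forelimb and chest. The study measured single-cell RNA from lymph nodes by a droplet method that reads transcript ends, and mice and tissues that shared a run were told apart by hashtag antibodies.

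The Aire-DTR group was 4 dams, named for a diphtheria toxin receptor placed under control of Aire, the regulator of self-antigen display in the thymus. Per the deposited table, the pregnancies of Aire-DTR mice 7, 8 and 36 were growth restricted (IUGR) and that of Aire-DTR mouse 4 was resorbed. The 3 WT dams were mice 1, 6 and 97. All 7 dams, WT included, had been mated with BALB/c males, received diphtheria toxin over 9 days of pregnancy and were examined at embryonic day 9.5. Mice 4, 7 and 1 were loaded in pool LN, mice 8 and 6 in pool 1, and mice 36 and 97 in pool 2. The sources used here do not give the age and strain of the dams, and uterine cells of pools 1 and 2 were not analysed here.

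Regulatory T cells restrain other lymphocytes and are maintained by the transcription factor Foxp3. They depend on interleukin 2, bind it with high affinity through the receptor chain encoded by Il2ra, and limit costimulation through Ctla4. Once activated they lose much of the lymph node homing programme of resting cells and take up costimulatory receptors and receptors for tissue homing. In pregnancy such cells are known for maternal tolerance of the fetus.

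The Act. Treg cells held 497053 UMIs (unique molecular identifiers, each counting 1 captured transcript), with a median of 2763 per cell and a range of 678 to 8908. Medians were 2585.5 in Resting Treg, 2987 in Tfh, 3392 in Th17 and 3513.5 in Early Act. CD4 cells. The Aire-DTR mice 4, 7, 8 and 36 gave 34, 22, 20 and 36 Act. Treg cells, against 23, 7 and 13 cells in WT mice 1, 6 and 97. The deposited matrix listed 9427 cells, because well 1 of pool LN stood in it under 2 barcode suffixes, and each repeated cell was counted once, which took Act. Treg from 196 entries to 155 cells. Apart from these, 208 barcodes occurred in more than 1 well, 7 of them Act. Treg cells, and none was Act. Treg in both wells. The mouse, node, genotype and subset of each cell come from the deposited cell tables, since each library held several mice. The sort is described as CD45+ CD3+ in 1 place and as CD45+ in another, and B cells are among the annotated cells.

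The 4 markers of the label were present. They are genes of the cells that were named, so their levels describe the label and are no finding. Foxp3 (chromosome X, 7573644 to 7595245, GRCm38) had at least 1 UMI in 43.6% of Act. Treg cells when each cell was thinned to 1500 UMIs (exact binomial 95% interval 35.2% to 52.2%, 140 cells, 15 shallower cells left out). Ikzf2, which encodes the Treg transcription factor Helios (chromosome 1, 69531214 to 69687245), had a UMI in 57.9% (49.2% to 66.1%). Il2ra (chromosome 2, 11642807 to 11693193) had a UMI in 31.4% (23.9% to 39.8%). Ccr6, a chemokine receptor of mucosal and memory lymphocytes (chromosome 17, 8236043 to 8257141), had a UMI in 14.3% (8.95% to 21.2%). At least 1 of the 4 was seen in 82.9% of Act. Treg cells and all 4 in 2.86%.

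The other subsets and cell types also had cells with these UMIs. At the same thinned depth, Resting Treg cells had a UMI in 41.9% for Foxp3, 30.6% for Ikzf2, 39.5% for Il2ra and 1.21% for Ccr6. Ikzf2 was seen in 13.8% of Tfh cells, and in Th17 cells Ikzf2 was seen in 7.84% and Ccr6 in 8.82%. CD8+ Naive T cells had a UMI in 0.0532% for Foxp3, 1.17% for Ikzf2, 0.426% for Il2ra and 0.0532% for Ccr6. B cells had 0.0966% for Foxp3, and 19.4% for Ccr6, a receptor that B cells express. Unthinned, the Act. Treg shares were 57.4% for Foxp3, 72.3% for Ikzf2, 45.8% for Il2ra and 23.2% for Ccr6 at a median of 2763 UMIs, against 28.5% for Ccr6 in B cells at a median of 2261 UMIs. Intervals here cover counting error only. The 3 gamma delta T cell markers and the 4 NK markers examined were at 0 in Act. Treg cells, as were 5 of 6 myeloid markers (all but Cst3). The B cell list totalled 296 UMIs, most of them Ighm, and the CD8 list 43 UMIs. A UMI of Cd79a, Cd79b, Cd8a or Cd8b1 was present in 38 of the 155 cells.

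Act. Treg cells were next set beside the Tfh, Th17 and Early Act. CD4 cells of the same mice. UMIs were summed over both nodes and scaled to a common total per sum (CPM). The subset names rest on the same genes, so these values are a description without a test. A gene counts as higher or lower where the median log2 CPM difference over mice passes 2-fold and has 1 sign in every mouse with at least 5 cells of both subsets. Against Tfh cells (6 mice) 87 of 7751 genes were higher, 1.12%, and 19 were lower, 0.245%. Against Th17 cells (7 mice) 88 of 7617 were higher, 1.16%, and 36 lower, 0.473%. Against Early Act. CD4 cells (7 mice) 171 of 8048 were higher, 2.12%, and 47 lower, 0.584%.

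There were 23 genes higher in Act. Treg than in Tfh, Th17 and Early Act. CD4 cells alike, and 0 lower than in all 3. Taken singly, these comparisons had 1.12%, 1.16% and 2.12% of their genes higher, in the same order. Resting Treg cells were not among the 3, and their Foxp3 and Il2ra levels overlapped those of Act. Treg. The 23 included Foxp3, Ikzf2, Il2ra, Ctla4, Tnfrsf18 and Lrrc32, which anchors latent TGF-beta on the Treg surface. They also included the costimulatory receptors Tnfrsf4 (OX40), Tnfrsf9 (4-1BB) and Tnfrsf1b, the inhibitory receptors Tigit and Lag3, and the ectoenzyme Nt5e (CD73), which makes adenosine. The chemokine receptor Ccr8, the cytokine subunit Ebi3, the decoy receptor Il1r2, and Cd81, Cd83, Ecm1, Lclat1, Ncmap, Pou2f2, Rilpl2 and Srgn completed the group, whose members are named here after their values were seen.

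**Figure D1:**
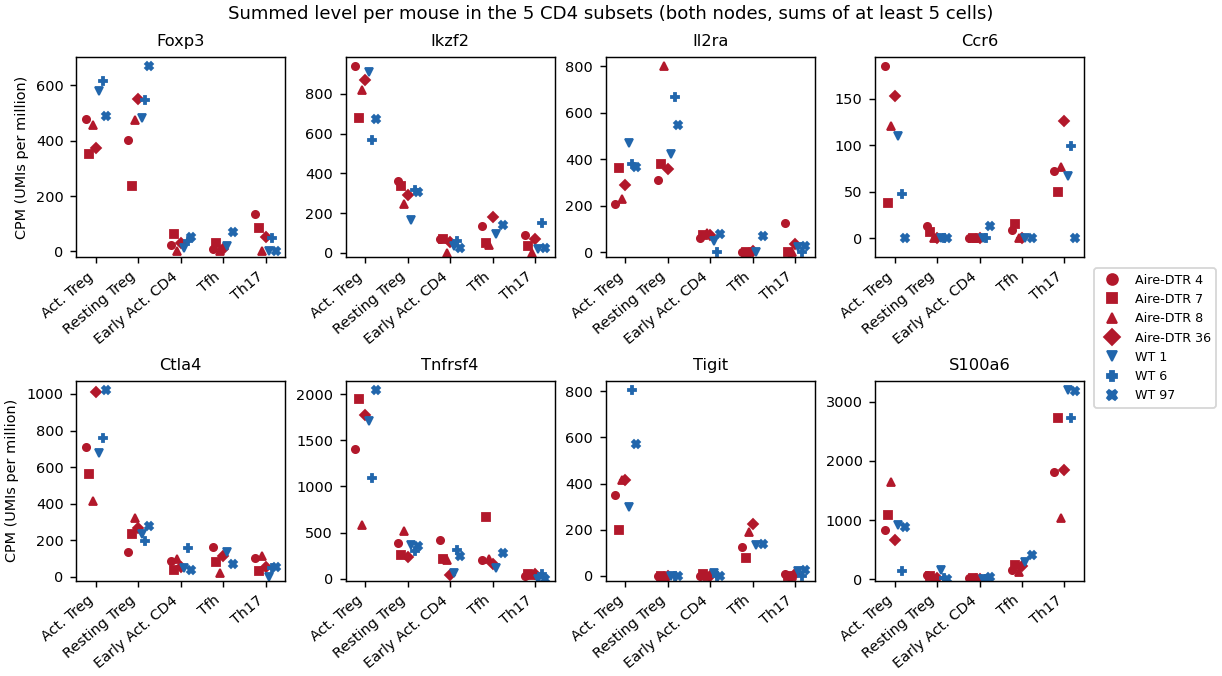
Summed level of 8 genes in CPM (y axis, linear) in each of the 5 CD4 subsets (x axis), 1 point per mouse with red for Aire-DTR and blue for WT, for sums of at least 5 cells. Foxp3 in Act. Treg lies between 351 and 616 CPM, above its highest value in Th17 cells, 134 CPM, while S100a6 is higher in Th17 than in Act. Treg cells at the median.

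Among the core Treg genes, Foxp3 ranged from 351 through a median of 480 to 616 CPM over 7 mice in Act. Treg cells, against 0 to 69.4 CPM in Tfh, 0 to 134 CPM in Th17 and 0 to 62.2 CPM in Early Act. CD4 cells. Ctla4 ranged from 416 through 709 to 1022 CPM in Act. Treg cells, against 21.2 to 161 CPM in Tfh, 0 to 115 CPM in Th17 and 37.3 to 157 CPM in Early Act. CD4 cells. Neither range touched those of these 3 subsets. Of the 12 core genes, all measured, 9 were higher than in Tfh cells, 7 than in Th17 cells and 10 than in Early Act. CD4 cells. Their median log2 differences were 1.63, 1.91 and 2.15, against medians over all genes of 0.03, 0.00 and 0.04. None of the 12 was lower. Foxp3, Ikzf2 and Il2ra, markers of the label, are among the 12 and enter each of these counts and medians. Among all genes compared, 1.12%, 1.16% and 2.12% were higher than in Tfh, Th17 and Early Act. CD4 cells. The lists were chosen with results of these cells known, so the counts are a description.

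Resting Treg, the other Treg subset in the deposited table, had a Foxp3 level that overlapped that of Act. Treg, with 351 to 616 CPM in Act. Treg and 237 to 669 CPM in Resting Treg. Il2ra levels overlapped too, with 207 through 364 to 471 CPM in Act. Treg and 309 through 422 to 799 CPM in Resting Treg (lowest, median and highest mouse). Tigit, which blocks CD226 costimulation, separated the 2 subsets fully, with 201 to 805 CPM in Act. Treg cells and 0 UMIs in the Resting Treg cells of every mouse. Tnfrsf9 ranged from 295 to 1232 CPM in Act. Treg and from 0 to 35.3 CPM in Resting Treg.

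The costimulatory and inhibitory receptors had 5 of 13 measured members higher than in Tfh cells, 9 of 13 than in Th17 cells and 6 of 13 than in Early Act. CD4 cells, with 0 lower in each. Of all genes compared, 1.12%, 1.16% and 2.12% were higher in these comparisons. Tnfrsf4 ranged from 577 through 1712 to 2044 CPM in Act. Treg, against 116 to 667 CPM in Tfh and 0 to 53.9 CPM in Th17 cells. The Tnfrsf4 ranges of Act. Treg and Tfh overlapped across mice, although Act. Treg was higher within each mouse. Icos, a costimulator that Tfh cells also use, was past the 2-fold rule against Th17 (median log2 difference 1.20) and Early Act. CD4 cells (2.44) but not against Tfh cells. Of the suppressive mediators, 5 of 11 were higher than in Tfh, 4 of 12 than in Th17 and 5 of 11 than in Early Act. CD4 cells. Ebi3, Lag3, Nt5e and Tigit were in each of those counts.

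**Figure D2:**
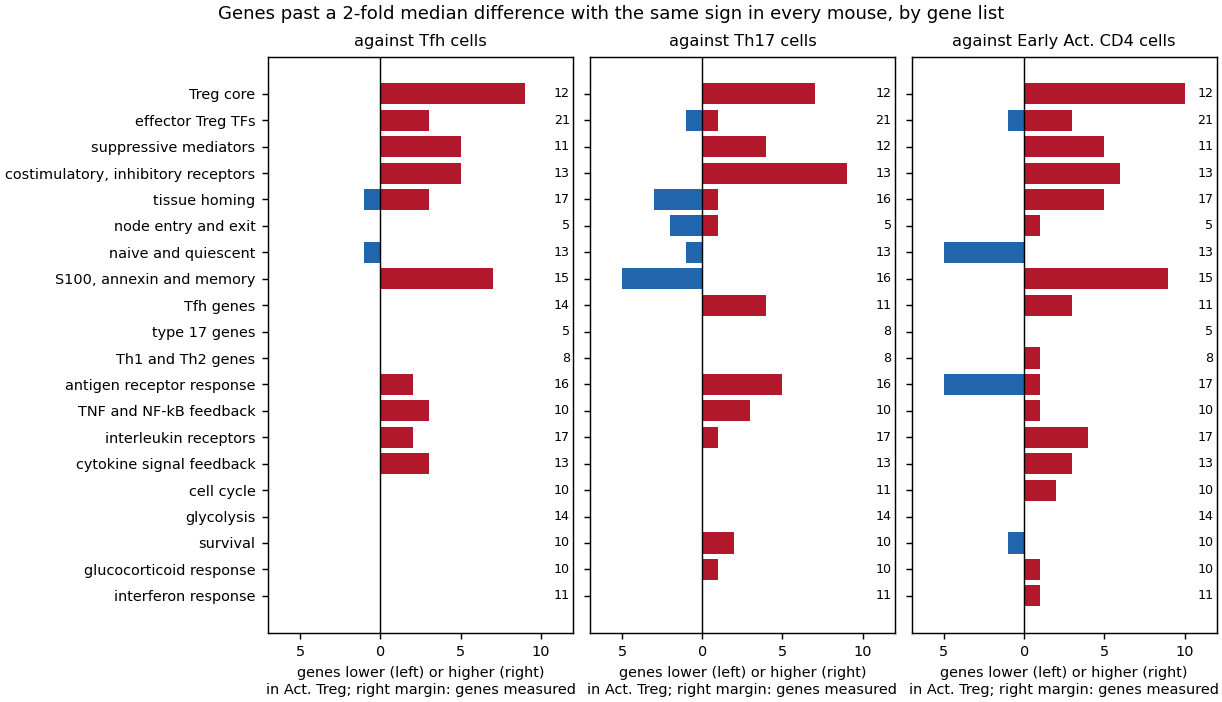
Number of genes per list (x axis) past a 2-fold median difference with 1 sign in every mouse, red bars for higher and blue bars for lower in Act. Treg, against Tfh, Th17 and Early Act. CD4 cells, with the number measured at the right margin. S100, annexin and memory genes are 7 of 15 higher against Tfh, 5 of 16 lower against Th17 and 9 of 15 higher against Early Act. CD4 cells. The shares over all genes are 1.12%, 0.473% and 2.12% in the same order.

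Memory-associated S100, annexin and cytoskeletal genes placed Act. Treg between the other subsets. Of these, 7 of 15 were higher than in Tfh and 9 of 15 higher than in Early Act. CD4 cells, and 0 were lower in either. Against Th17 cells 0 of 16 were higher and 5 were lower. Of all genes, 1.12% were higher than in Tfh, 2.12% higher than in Early Act. CD4 and 0.473% lower than in Th17 cells. S100a4, a calcium-binding protein of motile memory T cells, ranged from 186 to 289 CPM in Act. Treg, against 0 to 30.0 CPM in Tfh, 468 to 891 CPM in Th17 and 0 CPM in every mouse's Early Act. CD4 cells. The ranges of Act. Treg, Tfh and Th17 cells did not overlap. Vim (vimentin, an intermediate filament) had median log2 differences of 1.59 against Tfh, -1.46 against Th17 and 1.37 against Early Act. CD4 cells.

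Of the immediate genes of antigen receptor signalling, 5 of 17 were lower in Act. Treg than in Early Act. CD4 cells, against 0.584% of all genes. The transcription factor genes Nr4a1 (median log2 difference -2.17), Egr1 (-2.10) and Egr3 (-2.61), the phosphatase Dusp2 (-1.30) and Nfkbid (-1.42) were lower. Tnfrsf9 (1.47) was the 1 member higher (2.12% of all genes). Against Th17 cells 5 of 16 were higher (1.16% of all genes), namely Cd69, Nfkbia, Nfkbid, Dusp2 and Tnfrsf9. Against Tfh cells Nfkbia and Tnfrsf9 were (1.12% of all genes). Genes of naive and quiescent cells were lower than in Early Act. CD4 cells in 5 of 13 (Lef1, Satb1, Igfbp4, Dapl1 and Bcl2). Tcf7, which keeps T cells stem-like and supports Tfh fate, was the 1 member lower than in Tfh (-2.01) and Th17 (-1.22). Of all genes, 0.584%, 0.245% and 0.473% were lower than in Early Act. CD4, Tfh and Th17 cells. Cd8a (-2.69) and Cd8b1 (-2.56), markers of CD8 T cells, were lower than in Early Act. CD4 cells, where Cd8b1 reached 167 to 594 CPM, against 0 to 236 CPM in Act. Treg. Ighm, a B cell gene, was higher than in Th17 (1.69) and Early Act. CD4 cells (1.59). The comparisons were also run without cells that hold a Cd79a, Cd79b, Cd8a or Cd8b1 UMI, as counts of genes only. The part of CD8 and B cell transcripts in the differences of the genes named here was not tested.

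Of the tissue homing genes, 3 were higher and 1 lower of 17 measured against Tfh, 1 higher and 3 lower of 16 against Th17, and 5 higher and 0 lower of 17 against Early Act. CD4. The shares over all genes were 1.12%, 1.16% and 2.12% higher and 0.245%, 0.473% and 0.584% lower in the same order. Ccr8, a chemokine receptor of Treg cells in skin and tumours, was higher in all of these comparisons, with median log2 differences of 2.28 against Tfh, 1.49 against Th17 and 2.32 against Early Act. CD4. Ccr2, a receptor of inflammatory chemokines, was higher than in Tfh (2.14). Ccr10, a skin-homing receptor, and Itgb1, the integrin beta 1 chain, were lower than in Th17 (-1.40 and -1.52). Ccr4, Itgb1 and Itgal were higher than in Early Act. CD4 cells (2.28, 1.86 and 1.00). Cxcr6, a receptor of tissue-resident T cells, was lower than in Tfh (-1.17) and Th17 (-2.59), and Klf2, which sustains node exit and is not in that list, was lower than in Th17 (-1.84). Of 5 node entry and exit genes, 1 was higher and 2 were lower than in Th17 cells. Against Early Act. CD4 cells 1 was higher and 0 were lower, and against Tfh cells 0 were either. The shares over all genes are those given above. Itgae, the integrin that binds epithelial E-cadherin, was higher than in Tfh (1.95) and Early Act. CD4 cells (1.95) but was -0.17 against Th17. Ccr6 was not past the rule in any comparison. Its levels overlapped those of Th17 cells, with 0 through 110 to 186 CPM in Act. Treg and 0 through 72.2 to 126 CPM in Th17.

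Several effector genes came from few Act. Treg cells. Penk, which encodes the opioid precursor proenkephalin, had 102 UMIs in 9 of the 155 cells, and 3 cells held 71.6% of them. Gzmb (granzyme B) had 34 UMIs in 10 cells and Klrg1, a marker of terminally differentiated cells, 33 UMIs in 10 cells. Of the cells with Klrg1, 1 was from udLN and 9 were from brLN. Klrg1 and Gzmb occurred together in 3 cells, and Penk occurred with neither. Il10 (interleukin 10) had 9 UMIs in 8 cells, spread over all 7 mice. The genes in this paragraph were chosen after their values were seen, and a cell without a UMI may still express the gene.

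The study's broader annotation divided the Act. Treg cells, with 117 named CD4+ Mem T and 38 named CD4+ Treg. A UMI of S100a6 was present in 54.7% of the 117 and 15.8% of the 38, and a UMI of Tigit in 52.1% and 15.8% of them. Il2ra had the opposite order, with 40.2% of the CD4+ Mem T and 63.2% of the CD4+ Treg cells. Foxp3 was seen in 54.7% and 65.8% of them. Median depth was 2938 UMIs in the 117 and 2178.5 UMIs in the 38, and both names come from the same genes, so these are descriptions. The CD4+ Mem T name was carried by 73.5%, 90.9%, 80.0% and 77.8% of the Act. Treg cells of Aire-DTR mice 4, 7, 8 and 36, against 65.2%, 71.4% and 61.5% in WT mice 1, 6 and 97. The genotypes did not overlap, with means of 80.6% ± 7.4 in Aire-DTR (SD, n = 4) and 66.1% ± 5.0 in WT (SD, n = 3). The two-sided exact permutation p was 0.0571, the smallest that 4 against 3 mice can give, and this share was chosen after its values were seen.

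The share of Act. Treg among CD4 T cells was higher in udLN than in brLN in each of the 7 mice. In udLN it was 6.48%, 6.61%, 15.1% and 9.03% in Aire-DTR mice 4, 7, 8 and 36, and 9.03%, 7.27% and 22.2% in WT mice 1, 6 and 97. In brLN it was 6.10%, 3.32%, 7.69% and 6.38% in the same Aire-DTR mice, and 3.38%, 3.57% and 4.66% in the WT mice. Means over mice were 10.8% ± 5.8 in udLN and 5.01% ± 1.73 in brLN (SD, n = 7). The log2 difference was 0.77 (SE 0.21) with mouse as a block (edgeR quasi-likelihood on numbers of cells, Benjamini-Hochberg adjusted p = 0.00535). The exact sign-flip permutation gave p = 0.0156, the smallest it can give, and 0.0625 after adjustment over the 8 shares tested that way.

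The udLN share of WT mouse 97 stands on 2 of 9 CD4 T cells (95% Wilson interval 6.32% to 54.7%). Without that mouse the mean difference was 3.85 percentage points, against 5.81 with it. With only the 4 Aire-DTR mice the log2 difference was 0.55 and did not pass (edgeR quasi-likelihood, adjusted p = 0.116, against 0.000953 to 0.116 over 15 alternatives), and with only the 3 WT mice it was 1.45 (adjusted p = 0.0171). The difference between the genotypes' node effects was -5.53 percentage points for Aire-DTR minus WT, with an exact permutation p of 0.286. On log2 shares it was -0.93 (exact permutation p = 0.114). With 4 against 3 mice this test cannot give a p below 0.0571, so it cannot decide whether the node effects differ. Without WT mouse 97 the difference was -1.23 percentage points (exact permutation p = 0.667, smallest possible 0.133). Tfh cells also had a higher share in udLN than in brLN, with a log2 difference of 0.99 in the same fit, so the higher share was not shown to be particular to Act. Treg.

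**Figure D3:**
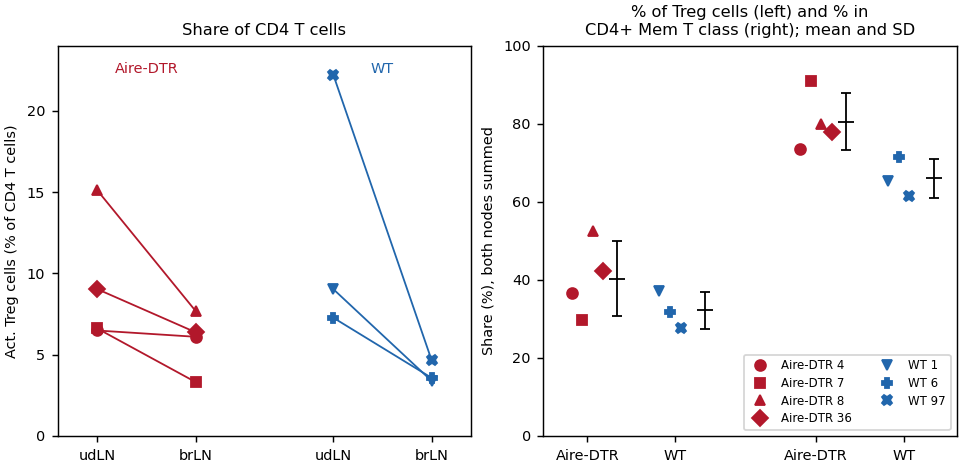
Left, Act. Treg as % of CD4 T cells (y axis) in udLN and brLN, a line per mouse with Aire-DTR in red and WT in blue. Right, Act. Treg as % of all Treg cells and % of Act. Treg cells named CD4+ Mem T, a point per mouse with mean and SD. Every line on the left is lower at brLN, and the CD4+ Mem T shares of the 4 Aire-DTR mice lie above those of the 3 WT mice.

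The genotype difference in the Act. Treg share was not past the test in either node. In brLN the mean was 5.87% ± 1.84 in Aire-DTR mice (SD, n = 4) and 3.87% ± 0.69 in WT mice (SD, n = 3). The log2 difference was 0.50 (SE 0.35, edgeR quasi-likelihood, adjusted p = 0.278) and the exact permutation p was 0.229. Aire-DTR mouse 7 lay below all 3 WT mice and the other 3 Aire-DTR mice lay above them. In udLN the mean was 9.31% ± 4.04 in Aire-DTR and 12.8% ± 8.2 in WT mice, with a log2 difference of -0.14 (SE 0.40, edgeR quasi-likelihood, adjusted p = 0.729). That difference turned to 0.47 without WT mouse 1. The means differed by -3.53 percentage points, but by 1.16 without WT mouse 97, whose share stands on 9 cells and without which the WT mean was 8.15%. Against all cells of the brLN, Act. Treg made up 1.98% ± 0.49 in Aire-DTR and 1.21% ± 0.03 in WT mice, without overlap (exact permutation p = 0.0571, the smallest possible). In udLN the share of all cells was 3.32% in Aire-DTR mice and differed from that in WT mice by -0.0822 percentage points (exact permutation p = 0.914), and over both nodes together the exact permutation p was 0.171.

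Of all Treg cells (Act. Treg and Resting Treg), Act. Treg were 36.6%, 29.7%, 52.6% and 42.4% in Aire-DTR mice 4, 7, 8 and 36, against 37.1%, 31.8% and 27.7% in WT mice 1, 6 and 97. The groups overlapped, and the means of 40.3% ± 9.7 in Aire-DTR and 32.2% ± 4.7 in WT mice differed with an exact permutation p of 0.286. Between nodes the same share was higher in udLN in 4 of 7 mice (exact sign-flip permutation p = 0.188).

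Within Act. Treg cells, Vim (the intermediate filament protein vimentin) and S100a6 fell in udLN relative to brLN, and Gimap6 rose. The 5 mice with at least 5 Act. Treg cells in both nodes were compared with mouse as a block, so WT is represented by mouse 1 alone. Of 652 genes tested, 3 passed at an adjusted p below 0.05 (0.46%), 1 higher in udLN (0.153%) and 2 lower (0.307%), by edgeR quasi-likelihood with Benjamini-Hochberg adjusted p-values.

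Vim (chromosome 2, 13573927 to 13582826) had 527, 192, 420, 400 and 623 CPM in the udLN of Aire-DTR mice 4, 7, 8 and 36 and WT mouse 1. In the brLN of the same mice it had 1301, 969, 2050, 1171 and 1354 CPM. The highest udLN value lay below the lowest brLN value, as for 4 of the 652 genes (0.613%), and the log2 difference was -1.61 (SE 0.22, edgeR quasi-likelihood, adjusted p = 0.000259). Of 13 alternatives, a minimum of 10 cells per sum, which Aire-DTR mice 4 and 36 meet, took the call away (log2 difference -1.39, adjusted p = 0.17, the highest of a range from 3.46e-07).

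S100a6 (chromosome 3, 90612882 to 90624181), a calcium-binding protein of memory cells, had 330, 922, 1098, 126 and 649 CPM in udLN. In brLN it had 1345, 1155, 2397, 1042 and 1314 CPM in the same order of mice. Each mouse was lower in udLN, although the udLN value of Aire-DTR mouse 8 exceeded the brLN value of Aire-DTR mouse 36. The log2 difference was -1.32 (SE 0.26, edgeR quasi-likelihood, adjusted p = 0.0129). It was -0.72 and not past the threshold (adjusted p = 0.818, the highest over 13 alternatives, the lowest being 4.48e-05) without the cells that hold a B or CD8 marker UMI. The call was also lost without Aire-DTR mouse 4 (adjusted p = 0.125) or Aire-DTR mouse 36 (0.123).

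Gimap6 (chromosome 6, 48701582 to 48708225), of a family of GTPases that support lymphocyte survival, had 923, 499, 444, 548 and 415 CPM in udLN. In brLN it had 347, 242, 284, 186 and 239 CPM. All udLN values lay above all brLN values, as for 3 of the 652 genes (0.46%), with a log2 difference of 1.20 (SE 0.24, edgeR quasi-likelihood, adjusted p = 0.0129). The direction held in each alternative and the call was lost in 5 of 12, DESeq2 among them and the fits without Aire-DTR mouse 4 or 36 (adjusted p = 0.223 and 0.123, in a range of 0.0137 to 0.999). Its neighbour Gimap4 had 769, 307, 280, 569 and 337 CPM in udLN and 325, 261, 158, 114 and 199 CPM in brLN, and missed the threshold (1.22, SE 0.29, adjusted p = 0.0649).

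**Figure D4:**
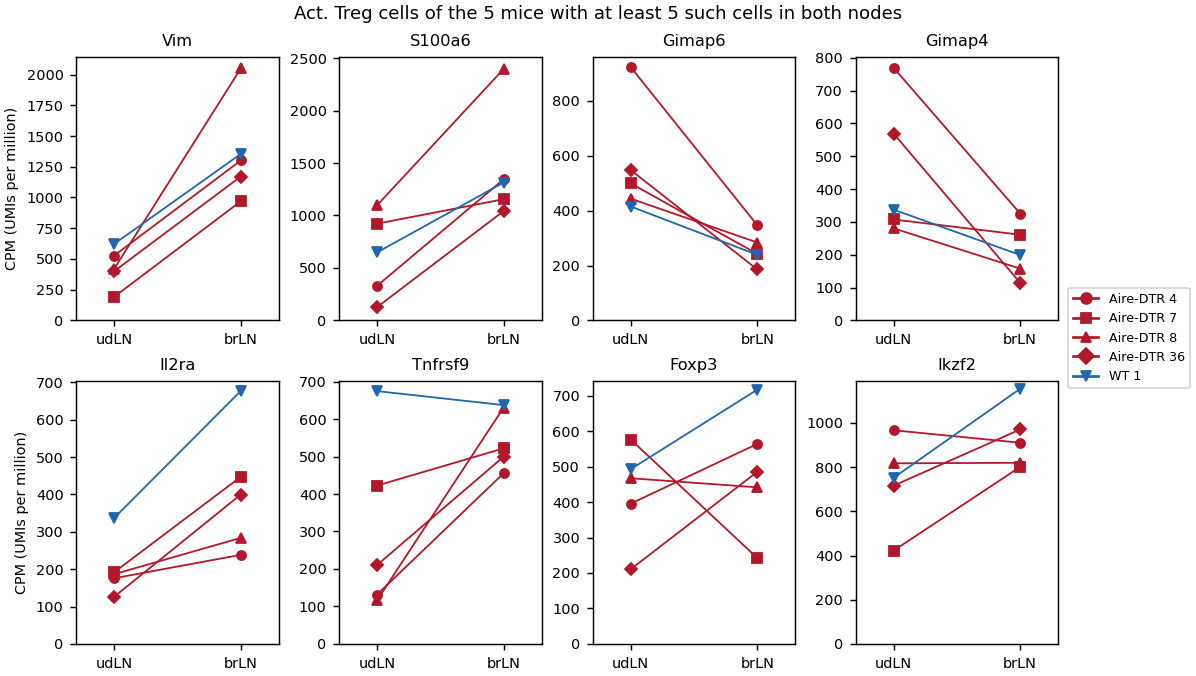
Level of 8 genes in CPM (y axis, linear) in Act. Treg cells of udLN and brLN, a line per mouse for the 5 mice with at least 5 cells in both nodes, Aire-DTR in red and WT in blue. Vim and S100a6 are higher in brLN and Gimap6 in udLN in all 5 mice, whereas the Foxp3 lines cross, with 2 mice higher and 3 lower in udLN.

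Of the 10 memory and S100 genes measured in this comparison, 2 passed as lower in udLN (0.307% of all genes did), 0 passed as higher and 1 had a positive difference. Their median log2 difference was -0.71, against 0.03 over all 652 genes. Lgals1 (galectin 1) was at -0.82 (SE 0.28, adjusted p = 0.286) and Crip1 at -0.72 (SE 0.25, adjusted p = 0.312), neither past the threshold. Other S100 genes were at -0.61 (S100a4), -0.23 (S100a10) and 0.28 (S100a11), none of them past it. Among 8 core Treg genes and 8 costimulatory and inhibitory receptors, 0 passed in either direction. Il2ra had 176, 192, 187, 126 and 337 CPM in udLN and 239, 447, 284, 400 and 677 CPM in brLN, lower in udLN in 5 of 5 mice but not past the threshold (-0.97, SE 0.28, adjusted p = 0.198). Tnfrsf4 was at -0.95 (SE 0.27, adjusted p = 0.198) and Tnfrsf9 at -0.93 (SE 0.29, adjusted p = 0.211). Foxp3 was at -0.20 (SE 0.28, adjusted p = 0.901).

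Across the 652 genes, 21 had a higher CPM in udLN than in brLN within each of the 5 mice (3.22%) and 26 a lower one (3.99%), 47 in all (7.21%). In 7 of the 652 (1.07%) the values of the nodes did not overlap between mice either. The median depth of Act. Treg cells was 2444 UMIs in udLN and 3073 UMIs in brLN, and its part in the node differences was not tested. In Resting Treg cells the same test gave Vim -0.33 (SE 0.17, adjusted p = 0.73) and Gimap6 0.13 (SE 0.21, adjusted p = 0.971) by edgeR, and whether the Treg subsets differ in this was not tested. The mice of the 2 tests were not all the same. For Resting Treg, Aire-DTR mouse 8 fell out with 4 udLN cells, and WT mouse 6 came in with 9 udLN and 6 brLN cells.

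Lag3, which lies under the low-count filter in this comparison, had 6, 10, 6, 22 and 13 UMIs in the udLN cells of Aire-DTR mice 4, 7, 8 and 36 and WT mouse 1. In brLN it had 3, 5, 3, 0 and 1 UMIs. It was seen in 26 udLN cells and 8 brLN cells over all mice. It was chosen after its values were seen, and with no low-count filter its log2 difference was 2.31 (SE 0.49, edgeR quasi-likelihood, adjusted p = 0.0047).

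Between genotypes, 1 gene of 1302 tested changed in Act. Treg cells, 0.0768%, and it rose (edgeR quasi-likelihood with pool as a term, both nodes summed per mouse, Benjamini-Hochberg adjustment). This was Lars2, the mitochondrial leucyl-tRNA synthetase (chromosome 9, 123366927 to 123462666). It had 6254, 5132, 5984 and 6289 CPM in Aire-DTR mice 4, 7, 8 and 36, against 4194, 2937 and 2575 CPM in WT mice 1, 6 and 97. Every Aire-DTR mouse lay above every WT mouse, as for 36 of the 1302 genes (2.76%). Means were 5915 ± 539 CPM in Aire-DTR (SD, n = 4) and 3235 ± 850 CPM in WT mice (SD, n = 3). The log2 difference was 0.87 (SE 0.16, adjusted p = 0.039). DESeq2 also called 1 gene. By edgeR 38 of the 1302 genes had an unadjusted p below 0.05, fewer than that threshold would give if no gene differed.

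The Lars2 call rests on few mice. The adjusted p by edgeR was 0.27 without Aire-DTR mouse 4, 0.999 without Aire-DTR mouse 36, 0.998 without WT mouse 97 and 0.0987 in brLN alone. The log2 difference stayed between 0.61 and 1.22 over 16 alternatives, and the call held in 12 of them (adjusted p 1.96e-06 to 0.999). Lars2 ranged from 3149 to 6091 CPM in Resting Treg cells of Aire-DTR mice and from 3868 to 4589 CPM in those of WT mice, which overlap. In CD4+ Naive T cells it was 4192 to 5246 CPM in Aire-DTR and 5327 to 5798 CPM in WT mice, without overlap and with Aire-DTR lower. The difference between subsets was not tested. The mouse Lars2 transcript is known to carry a stretch that resembles mitochondrial ribosomal RNA, so its UMIs may not come from Lars2 alone, and this was not tested. UMIs of the 13 mitochondrial genes were 1.43% to 1.63% in Act. Treg cells of Aire-DTR mice and 1.39% to 1.69% in those of WT mice.

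**Figure D5:**
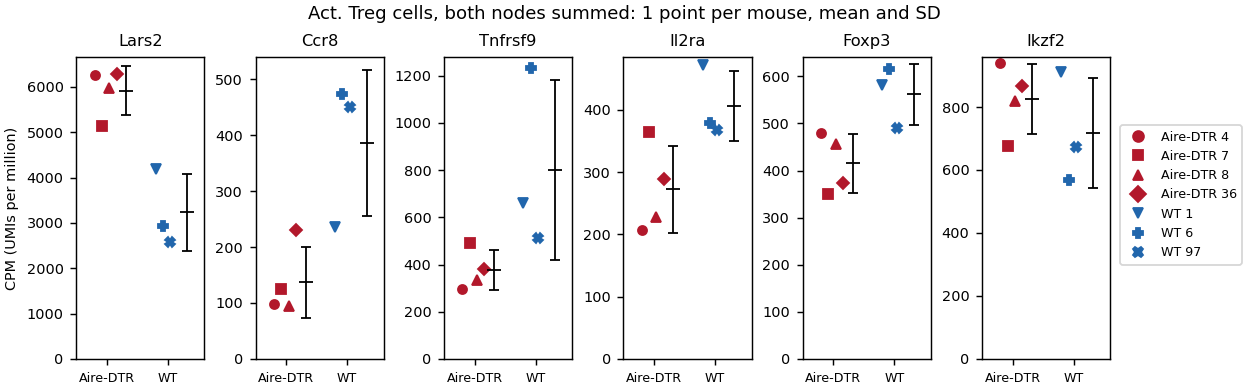
Level of 6 genes in CPM (y axis, linear) in Act. Treg cells of each mouse, both nodes summed, Aire-DTR in red to the left of WT in blue, with mean and SD. Lars2 is higher in Aire-DTR without overlap, Ccr8, Tnfrsf9, Il2ra and Foxp3 are lower without overlap but not past the threshold, and Ikzf2 overlaps. Of all 1302 genes, 36 (2.76%) are higher and 58 (4.45%) lower without overlap.

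The next smallest p-values belonged to genes that were lower in Aire-DTR mice without passing. Ccr8, a receptor of skin-homing and tumour Treg cells, had 98.2, 125, 93.9 and 230 CPM in Aire-DTR mice, against 236, 474 and 450 CPM in WT mice (log2 difference -1.26, SE 0.33, adjusted p = 0.885). Tnfrsf9 had 295, 489, 336 and 383 CPM in Aire-DTR mice, against 660, 1232 and 511 CPM in WT mice (-0.91, SE 0.26, adjusted p = 0.893). For both genes the genotype ranges did not overlap. The same was true of Mgst2, a microsomal glutathione transferase (-1.63, SE 0.48, adjusted p = 0.893). Such separation occurred for 94 of the 1302 genes (7.22%), 36 of them higher (2.76%) and 58 lower (4.45%) in Aire-DTR.

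Foxp3 had 480, 351, 456 and 374 CPM in Aire-DTR mice, against 581, 616 and 490 CPM in WT mice. Every Aire-DTR value lay below every WT value, but the difference was not past the threshold (log2 -0.41, SE 0.23, adjusted p = 1). Il2ra had 207, 364, 228 and 289 CPM in Aire-DTR mice, against 471, 379 and 368 CPM in WT mice, again without overlap and without passing (-0.58, SE 0.29, adjusted p = 1). Of all 1302 genes, 58 (4.45%) were lower in Aire-DTR without overlap. Ikzf2 had 939, 678, 819 and 868 CPM in Aire-DTR mice, against 911, 568.4 and 674 CPM in WT mice, with overlap. Ctla4 (709, 565, 416 and 1013 CPM in Aire-DTR, against 675 , 758 and 1022 CPM in WT) and Icos (851, 653, 604 and 843 CPM in Aire-DTR, against 754, 1042 and 593 CPM in WT) overlapped as well.

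Ccr6 lay under the low-count filter of this comparison, with 186, 37.6, 121 and 153 CPM in Aire-DTR mice, against 110, 47.4 and 0 CPM in WT mice. Prdm1 (Blimp1), a regulator of effector Treg cells that is also under the filter, had 32.7, 12.5, 53.7 and 8.5 CPM in Aire-DTR mice, against 62.8, 94.7 and 61.3 CPM in WT mice, from 18 UMIs in all. Aire had 0 UMIs in Act. Treg cells of every mouse, and lymph node T cells give no check of the depletion.

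No gene list had a member that passed between genotypes, and no type 17 gene reached the filter. The 9 core Treg genes measured had a median log2 difference of -0.18 with 3 positive, and the 9 antigen receptor response genes -0.27 with 2 positive. The 12 memory and S100 genes had 0.17 with 8 positive, against a median of 0.00 over all 1302 genes. Erythroid transcripts, which T cells do not make, ran from 0 to 711 CPM in Aire-DTR mice and from 31.4 to 1124 CPM in WT mice. Their part in the genotype comparison was not tested. Because the dams with the Aire-DTR genotype are also those with abnormal pregnancies, genotype and pregnancy outcome cannot be told apart.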

How the data were processed

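Per the labels, the nodes were made into single-cell suspensions, enriched on Percoll and sorted, and 3 pools were loaded in 2 wells each (6 libraries). The authors deposited UMI counts per cell and gene. The submitters' processing notes list Seurat, Scanpy 1.7.0, bustools 0.40.0 and kallisto 0.46.1 with build GRCm38. The sources used here do not give their roles, the cell filters, hashtag calling, doublet removal or subset naming. No doublet caller was run, and scaled matrices were not used.

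Well 1 of pool LN was listed under 2 suffixes. Of 2127 repeated entries, 2126 had identical labels, and the first entry was kept (1 cell was Tfh in the first and Early Act. CD4 in the second). This left 7300 cells with 22833288 UMIs over 14125 genes.

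Counts were summed per mouse (at least 5 cells), filtered with filterByExpr, scaled by TMM and tested with edgeR 4.0.16 in R 4.3.3 by its quasi-likelihood test, with Benjamini-Hochberg adjustment over all genes tested. Genotype fits had pool as a term, and node fits had mouse as a block, since both nodes come from 1 mouse. An SE is the size of the log2 difference divided by the root of its F statistic. Act. Treg sums held 21111 to 117511 UMIs per mouse. Cell shares were tested on cell numbers in the same way, and by exact two-sided permutation. Subset comparisons used log2 CPM with a prior count of 2 and at least 10 UMIs. Alternatives were DESeq2 1.42.0, limma 3.58.1 on logit shares, other scalings, filters and denominators, and each mouse left out. Scripts were tested on simulated data.

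Members and gene lists were chosen with earlier results of these data known. The genes named were those past a threshold (up to 8 or 10 a direction), the 5 smallest p where fewer passed, up to 4 of each list, and 18 always examined. Receptor and immunoglobulin segments were counted and not named. Il2 is not analysed here, and some other items examined are left out. Bcl2a1b and Hbb-bs share reads with near-identical copies. Coordinates are from GENCODE M21, matched by symbol.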

Additional observations from a re-analysis of the deposited data

Results flagged for a closer look

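In 4 groups of values 1 mouse was set apart from the rest by a gap that is large for the range of its group, out of 37 groups examined. Such a gap arises by chance in about 1 of 20 groups.

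In udLN, Act. Treg made up 76.5% of the Treg cells of Aire-DTR mouse 8, which gave 13 Act. Treg and 4 Resting Treg cells there. The next highest of the Aire-DTR mice, mouse 7, gave 8 Act. Treg and 12 Resting Treg cells. The difference of the Act. Treg share of CD4 T cells, udLN minus brLN, was 17.6 percentage points in WT mouse 97, whose udLN gave 9 CD4 T cells, while the other 6 mice had 0.387 to 7.42.

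The S100a6 level in brLN Act. Treg cells was 2397 CPM in Aire-DTR mouse 8, from 7 cells, against 1042 to 1345 CPM in the other 4 mice. The Gimap6 level in udLN Act. Treg cells was 923 CPM in Aire-DTR mouse 4, from 19 cells, against 415 to 548 CPM in the other 4 mice.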

How the results depend on the processing

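Of 273 alternative values, 232 were classed as unchanged, 22 counts or shares moved, 15 lost and 3 gained a call, and 1 reversed. Unchanged means the same direction and side of the threshold for tests, and only a value not classed as moved for counts and marker shares. Among the 232 are 11 values for the Act. Treg share of Treg cells and 8 for the CD4+ Mem T share. Another 9 are for the genotype difference in node effects. All of these come from exact permutations whose smallest possible p was 0.0571 to 0.133. Their side of 0.05 could not change, so only their direction was tested. The Act. Treg share in udLN, Aire-DTR against WT, reversed to a log2 difference of 0.47 without WT mouse 1 (-0.57 to 0.47 over mice left out). The node difference of the share weakened to 0.55 with Aire-DTR mice only, and was 0.64 to 0.97 over mice left out. Without the replicate block (mouse) it was 0.85 (adjusted p = 0.0025) and the node gene count was 3.

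The genotype gene count was 1. It was 3 with no low-count filter, 2 with sums of at least 10 cells, and 0 to 4 over mice left out (0 without Aire-DTR 4, Aire-DTR 36 or WT 97, where 42, 35 and 45 genes had an unadjusted p below 0.05). With pool as a term, leaving out 1 mouse of pool 1 or 2 also removes the weight of its partner. DESeq2 called 1 gene.

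The node gene count was 3. It was 7 with no low-count filter, 0 with sums of at least 10 cells (84 at an unadjusted p below 0.05), 7 with CD4+ Mem T cells only, and 1 to 8 over mice left out. DESeq2 called 2 genes.

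With a prior count of 0.5 the subset counts were 222 against 106 (Tfh) and 332 against 218 (Early Act. CD4). Over mice left out they were 127 to 149 (Tfh), 127 to 165 (Th17) and 231 to 288 (Early Act. CD4), since fewer mice must share a sign. The lowest counts over all alternatives were 78 (Tfh), 95 (Th17) and 166 (Early Act. CD4). Those alternatives include leaving out cells with a B or CD8 marker UMI.

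The shares of Act. Treg cells with a UMI moved without thinning to 89.7% (any marker), 57.4% (Foxp3), 72.3% (Ikzf2), 45.8% (Il2ra) and 23.2% (Ccr6), and to 30.7% for Foxp3 at 1000 UMIs. Depth limits the gene tests, since 7 to 36 Act. Treg cells per mouse leave most genes under the low-count filter.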
